A study of Sus scrofa with 30 samples.

Results

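The comparison described here set cerebral cortex of pigs taken 60 min after return of spontaneous circulation under a saline infusion (SAL60) against cortex of pigs with 0 min of cardiac arrest (CA0). Its members were the 3 arrays titled for 60 min of recovered circulation with saline and the 3 arrays titled as the 0 min control, 6 of the 30 arrays of the series, each a biological replicate per the labels. The SAL60 animals had 12 min of ventricular fibrillation, 8 min of chest compressions by a piston device, a countershock, and saline at 55 mL/kg/h from 1 min after compressions began until 50 min after circulation returned, so that the tissue was taken after the infusion had ended. In the CA0 animals the brain was removed at once after the arrest was induced, and the labels give no resuscitation and no infusion for them. Arrest, compressions, countershock, infusion and time under anaesthesia therefore differ together between the groups and cannot be told apart. Other groups are used beside them: untreated arrest of 5, 20 and 30 min without resuscitation (CA5, CA20, CA30), the same resuscitation and saline with tissue taken at 30 or 180 min (SAL30, SAL180), and at 60 min with methylene blue at 7.5 mg/kg/h in the saline (MB60), each with 3 arrays. All animals were prepubertal farm pigs of both sexes, 12 to 14 weeks old, at 25.8 ± 1.3 kg, under pentobarbital at 8 mg/kg/h and ventilated with 30% oxygen.

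When blood flow to the brain stops, neurons lose ATP within minutes, and the return of flow brings back oxygen to cells with disturbed calcium, misfolded proteins and stalled protein synthesis. Several programmes of transcription are known to start then: immediate early genes, which need no new protein synthesis, the heat shock response, in which HSF1 switches on chaperones that refold or clear damaged proteins, and the integrated stress response, in which phosphorylation of eIF2-alpha slows translation. HSPA6 is an inducible chaperone of the HSP70 family, ATF3 a transcription factor of stress and the immediate early response, and CYR61 a secreted matrix-associated signalling protein.

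Intensities are in arbitrary units, scaled per array by the authors, and differences are on the log2(intensity + 16) scale, which understates the change of dim probe sets. A probe set is a group of probes for 1 transcript. It was called where limma's two-sided test, adjusted over all 16799 probe sets tested, gave an adjusted p under 0.05. Arrays of SAL60 correlated with each other at 0.964 to 0.978 and arrays of CA0 at 0.968 to 0.973, and SAL60 with CA0 arrays at 0.959 to 0.970. The ratio of 3' to 5' signal of control transcripts, on the log2 scale, a sign of RNA integrity and labelling, was 1.30, 2.29 and 0.98 in SAL60 replicates 1, 2 and 3, against 1.70, 1.66 and 1.91 in CA0 replicates 1, 2 and 3 (two-sided exact permutation p = 0.6, with 0.1 the smallest p that 3 against 3 can give). SAL30 replicate 1 and 3 arrays of methylene blue groups, MB60 replicate 2 among them, stood apart from the rest, with a median correlation under 0.95 with the other arrays. Without these 4 arrays 49 probe sets were called in SAL60 against CA0, where 53 were called with them, 0 in SAL60 against SAL30 and 15 in SAL180 against SAL60. In whole cortex, fewer cells of a type and less RNA per cell cannot be told apart. Markers of neurons, astrocytes and myelin were bright, as the cortex label says. Of 72 markers of 10 cell types that were tested, 0 were called in limma, against 0.466% of all genes called higher and 0.0345% lower. Summed intensities of markers are over every probe set of the listed genes on the array, also those not tested. For the 11 neuron markers this sum was 56595 to 61668 in SAL60 and 55457 to 64008 in CA0.

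After 60 min of reperfusion under saline, 46 probe sets were higher than in CA0 (0.274% of those tested) and 7 were lower (0.0417%), in limma with Benjamini-Hochberg adjustment. Among the 5797 genes with a symbol, 27 had a probe set called higher (0.466%) and 2 had one called lower (0.0345%). The higher ones differed by 0.74 to 4.68 on the log2 scale, with a median of 1.49, and 39 of them were past 1. The 7 lower ones differed by -0.62 to -1.53, with a median of -1.22. In all 53 the 3 SAL60 arrays did not overlap with the 3 CA0 arrays, as was so for 11.8% of all probe sets tested. The median over all probe sets tested was 0.01.

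In the 6 fits that each left out 1 SAL60 or CA0 array, 23 to 47 probe sets were called. The count fell to 23 without SAL60 replicate 1, to 30 without SAL60 replicate 3 and to 23 without CA0 replicate 3, and a fit to the SAL60 and CA0 arrays alone gave 19. In all 6 fits 21 probe sets stayed called, all of them higher, and they stood for 11 genes: HSPA6, HSP70.2, DNAJB1, BAG3, ATF3, GADD45A, CYR61, ADAMTS1, HPSE, FUCA2 and SLC2A3, with 7 probe sets that carried no single symbol. The other 32 lost their call in at least 1 of these fits. Of the 11 genes, HSP70.2 and HPSE were not called in the fit to the SAL60 and CA0 arrays alone. Replicate 2 was the lowest SAL60 array in 28 of the 46 higher probe sets, and it had the highest 3'/5' ratio of the SAL60 arrays. The share of all probe sets in which it was the lowest is not given here. Whether the 3'/5' ratio had a part in its low values was not tested. With that ratio as a covariate 52 probe sets were called, 49 of them among the 53.

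**Figure D1:**
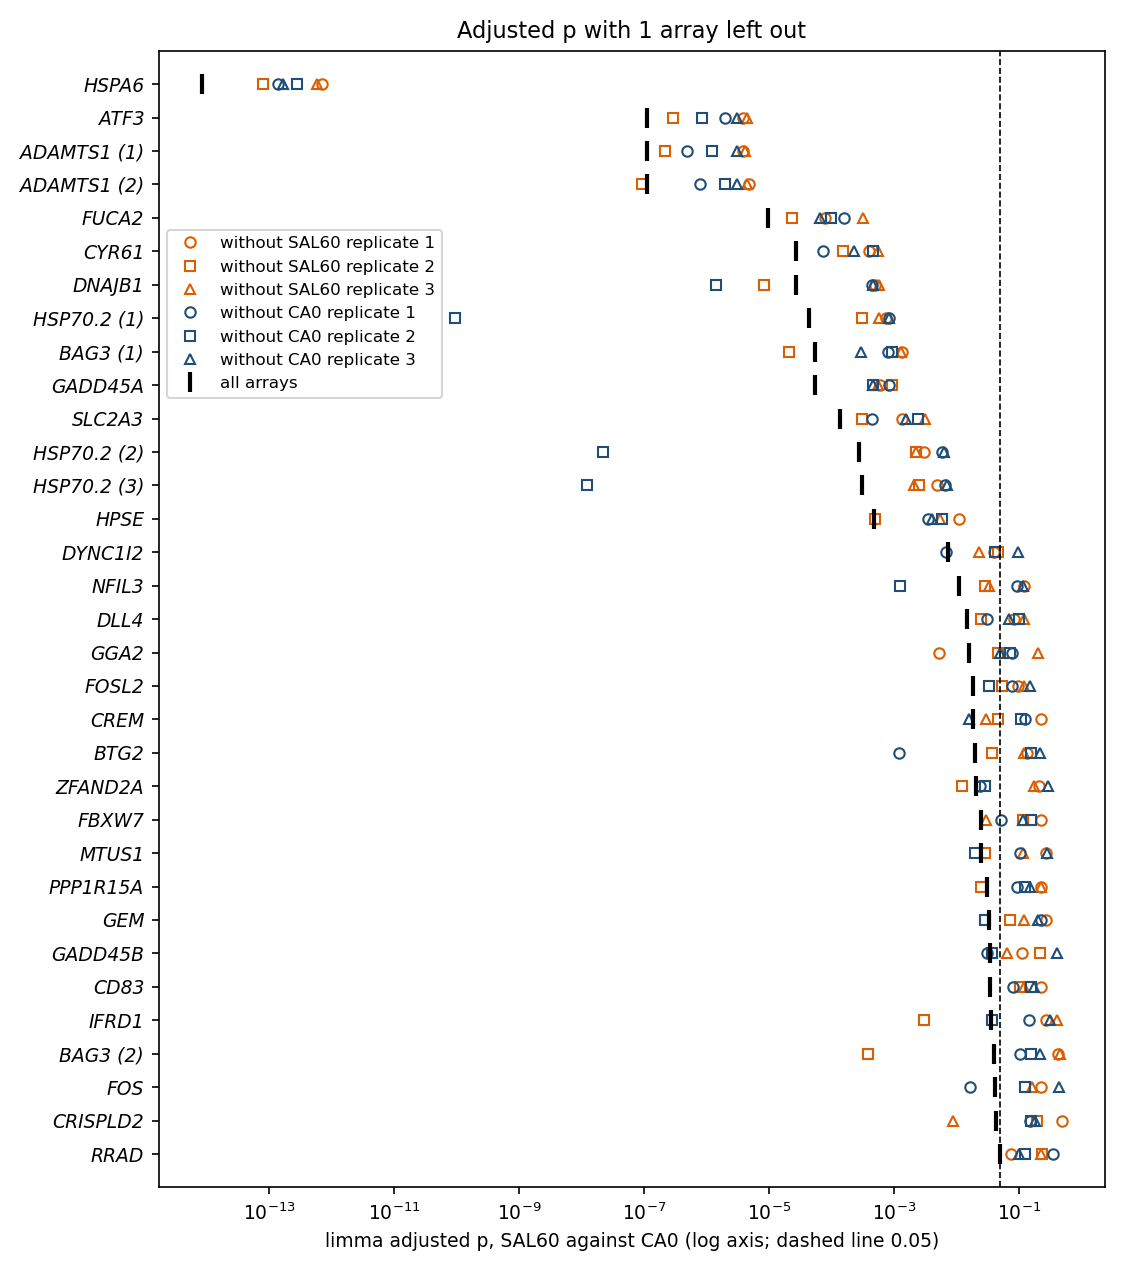
Adjusted p of SAL60 against CA0 (log axis, limma) for the 33 called probe sets with a symbol, with all arrays (bar) and with each SAL60 array (orange) or CA0 array (blue) left out; numbers in brackets tell probe sets of a gene apart. The upper 14 rows stay left of the dashed line at 0.05 in all 6 fits, and each lower row crosses it in at least 1.

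Heat shock genes held the largest rise. HSPA6 had intensities of 3579, 2664 and 3776 on the SAL60 arrays, against 138, 128 and 81.1 on the CA0 arrays. The lowest SAL60 array was many times brighter than the highest CA0 array, and the means stood 28.9-fold apart (log2 change 4.68 ± 0.20 SE, n = 3 per group, limma adjusted p = 8.4e-15). HSP70.2, the inducible cytosolic HSP70 of the pig, rose on all 3 of its probe sets, by 3.05 ± 0.39, 2.46 ± 0.35 and 1.95 ± 0.28 on the log2 scale. On its first probe set the SAL60 arrays read 10412, 8429 and 9524, against 639, 3543 and 613 on the CA0 arrays. CA0 replicate 2 was thus far above the other CA0 arrays. The gene was called on all 3 probe sets whichever single SAL60 or CA0 array was left out. In the fit to the SAL60 and CA0 arrays alone, none of the 3 was called. HSPA6 and HSP70.2 are close in sequence, and signal from relatives of the family was not separated.

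Of the partners of HSP70, DNAJB1 and BAG3 were called. DNAJB1, the HSP40 co-chaperone that stimulates the ATPase of HSP70, read 3182, 1771 and 3563 in SAL60, against 436, 867 and 357 in CA0 (log2 change 2.37 ± 0.28 SE, limma adjusted p = 2.7e-05). SAL60 replicate 2 was its lowest SAL60 array and CA0 replicate 2 its highest CA0 array, and they did not overlap. BAG3, a nucleotide exchange factor that steers HSP70 clients to autophagy, read 2077, 1032 and 2020 in SAL60, against 300, 283 and 380 in CA0 (2.30 ± 0.30, adjusted p = 5.4e-05). Its dimmer probe set rose by 1.39 ± 0.30, a call that was kept only without SAL60 replicate 2 and lost without any other array (adjusted p = 0.102 to 0.442). ZFAND2A, a proteasome-associated protein known to be induced by arsenite, averaged 654 ± 137 in SAL60 and 305 ± 88.2 in CA0 (SD, n = 3 each; log2 change 1.08 ± 0.22, limma adjusted p = 0.0205). That call was lost without SAL60 replicate 1 (0.206), SAL60 replicate 3 (0.17) or CA0 replicate 3 (0.291).

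Of the 26 heat shock and cytosolic chaperone genes tested, 4 were called higher (HSPA6, HSP70.2, DNAJB1, BAG3) and 0 lower in limma. The median difference of the list was 0.12 on the log2 scale, with 20 members above 0, against a median of -0.01, 48.8% above 0 and 0.466% called higher over all genes. This list and those below were chosen with earlier results of these data known, so the shares set beside them are description and not a test. The constitutive HSPA8 differed by 0.01 ± 0.13, HSP90AA1 by 0.08 ± 0.19, HSP90AB1 by 0.00 ± 0.12, and the mitochondrial chaperones HSPD1 and HSPE1 by 0.13 ± 0.10 and 0.02 ± 0.11. The small heat shock proteins HSPB1 (0.58 ± 0.20) and HSPB8 (0.28 ± 0.15) did not pass, nor did HSPH1 (0.34 ± 0.14), a nucleotide exchange factor of HSP70. The HSP40 members DNAJA1 (0.20 ± 0.18), DNAJB4 (0.54 ± 0.17) and DNAJB6 (-0.12 ± 0.16) and the adaptor STIP1 (0.03 ± 0.16), which links HSP70 to HSP90, did not pass either.

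**Figure D2:**
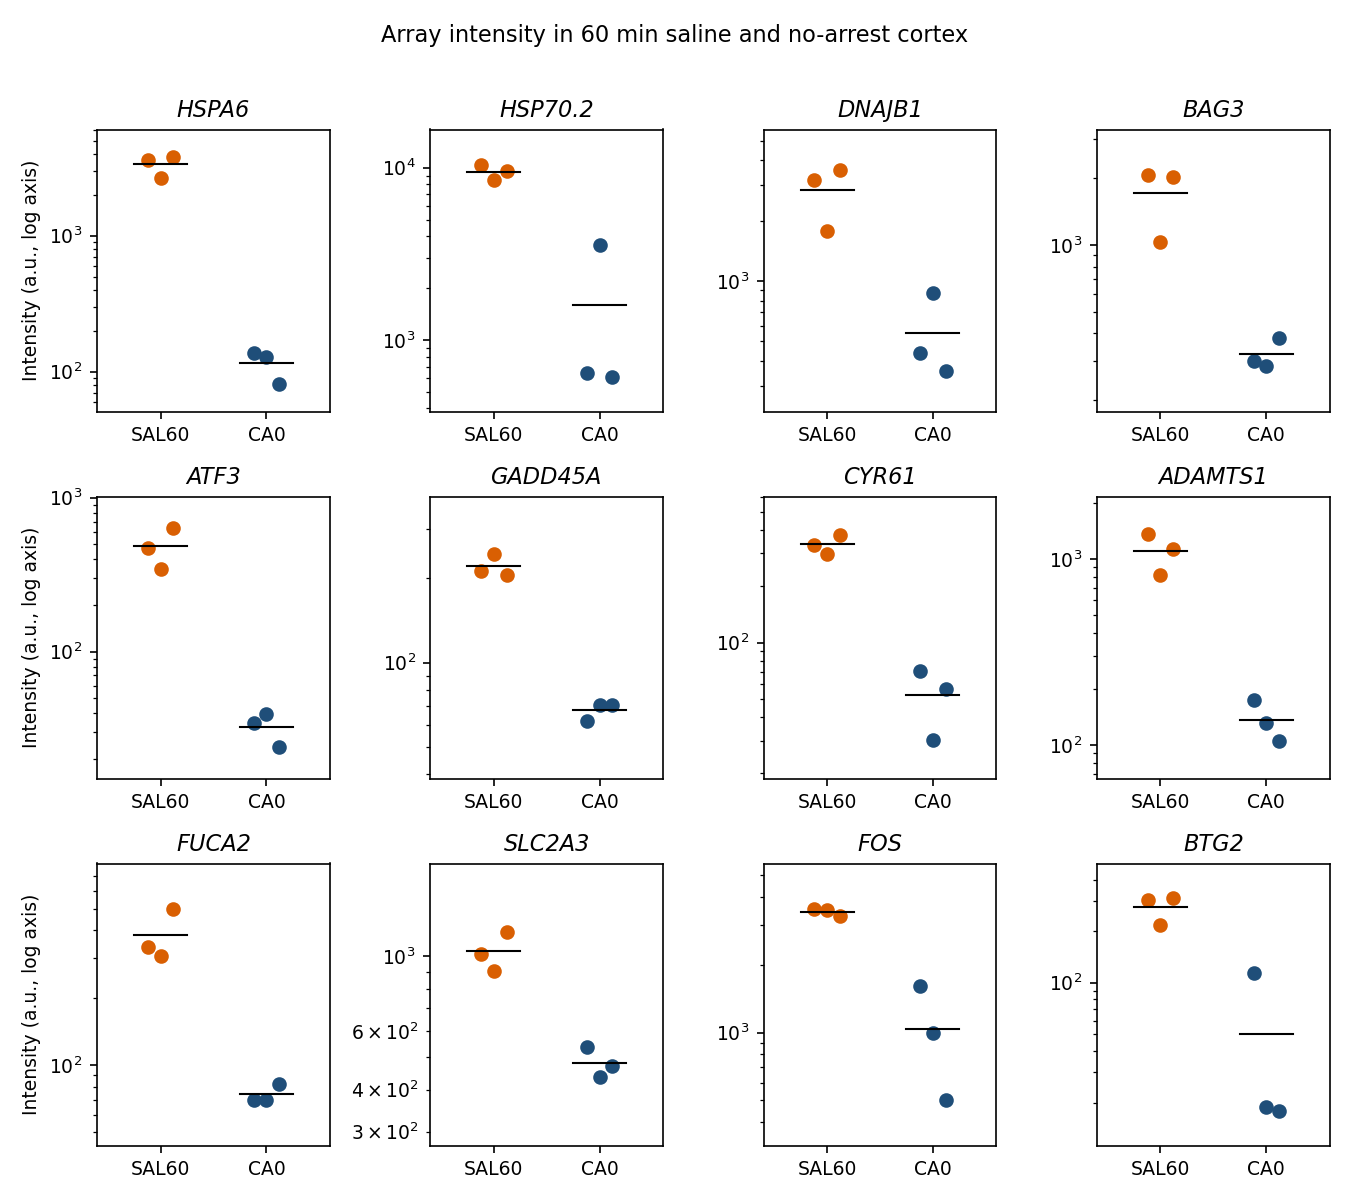
Intensity (arbitrary units, log axis) on each SAL60 array (orange, left) and CA0 array (blue, right) for 12 genes called higher, 1 probe set per gene, with replicates 1 to 3 from left to right and the mean as a line. The groups do not overlap in any panel, and single CA0 arrays stand high for HSP70.2 (3543) and BTG2 (114).

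Stress-induced regulators also rose. ATF3 read 474, 347 and 637 in SAL60, against 34.2, 39.5 and 23.9 in CA0, and its means stood 14.9-fold apart (log2 change 3.34 ± 0.30 SE, n = 3 per group, limma adjusted p = 1.1e-07). Its CA0 values lay near the intensity of 29.5 that corresponds to the filter on mean level, so the fold depends on a low CA0 level. GADD45A, a growth arrest protein induced by DNA damage and other stress, read 213, 245 and 206 in SAL60, against 61.7, 70.6 and 70.8 in CA0 (means 3.27-fold apart, log2 SE 0.19, adjusted p = 5.4e-05). Neither gene showed an overlap between the groups. PPP1R15A, also called GADD34, brings a phosphatase to eIF2-alpha and so ends the integrated stress response. It read 230, 162 and 242 in SAL60, against 89.6, 84.2 and 86.6 in CA0 (1.13 ± 0.24, adjusted p = 0.0304). Its call was kept without SAL60 replicate 2 and lost without any of the other 5 arrays (adjusted p = 0.0924 to 0.225). GADD45B rose by 0.88 ± 0.19 on 1 probe set (adjusted p = 0.0335), a call lost without any SAL60 array (0.063 to 0.214) or CA0 replicate 3 (0.397). Its other probe set differed by 0.94 ± 0.26 and did not pass.

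Of the 15 genes of the integrated stress and unfolded protein response tested, 1 was called higher (PPP1R15A) and 0 lower in limma, with a median difference of 0.05, against 0.466% called higher and a median of -0.01 over all genes. ATF4, the transcription factor whose translation rises when eIF2-alpha is phosphorylated, differed by 0.05 ± 0.13 and its target DDIT3 by 0.45 ± 0.15. The chaperones of the endoplasmic reticulum HSPA5 (0.01 ± 0.18) and HSP90B1 (-0.01 ± 0.11) did not pass either. The count of this list was 0 without SAL60 replicates 1 or 3 or any CA0 array, with quantile normalization, with median centring, and in a fit to the compared groups alone. Of 7 growth arrest, apoptosis and p53 genes tested, 2 were called higher (GADD45A, GADD45B) and 0 lower, with a median of 0.64. Over all genes 0.466% were called higher, and the median was -0.01. The count was 1 without any SAL60 array or CA0 replicate 3. CDKN1A, which blocks the cell cycle, differed by 0.81 ± 0.22 and did not pass.

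FOS, a subunit of the AP-1 transcription factor, read 3523, 3499 and 3286 in SAL60, against 1605, 997 and 503 in CA0 (log2 change 1.86 ± 0.41 SE, n = 3 per group, limma adjusted p = 0.0407). The SAL60 arrays lay close together and the CA0 arrays were widely spread. The call was kept only without CA0 replicate 1, and lost without any of the other 5 arrays (0.123 to 0.439). FOSL2, another AP-1 subunit, averaged 132 ± 4.83 in SAL60 and 61.7 ± 7.88 in CA0 (SD, n = 3 each; 0.93 ± 0.19, adjusted p = 0.0184), and its call was kept only without CA0 replicate 2 (0.0529 to 0.146 otherwise). Of the 12 AP-1 and early transcription factor genes tested, 3 were called higher (ATF3, FOS, FOSL2) and 0 lower. All 12 differed upward, with a median of 0.69 on the log2 scale, against 48.8% above 0 and 0.466% called higher over all genes. The count was 1 without any SAL60 array or CA0 replicate 3. EGR1, a factor induced by neuronal activity, overlapped between the groups on the probe set with its smallest p, at 221, 123 and 331 in SAL60 and 49.9, 133 and 93.0 in CA0 (1.14 ± 0.40, adjusted p = 0.546). The brighter EGR1 probe set, which stood for the gene in the list, averaged 1776 ± 73.4 in SAL60 and 1308 ± 811 in CA0 (SD, n = 3 each; 0.60 ± 0.45, adjusted p = 0.894). JUN differed by 0.30 ± 0.30, NR4A2 by 1.05 ± 0.38 and KLF4 by 1.05 ± 0.33 without passing.

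CREM and NFIL3, basic leucine zipper factors outside that list, were also higher. CREM, which binds cAMP response elements, averaged 1269 ± 234 in SAL60 and 614 ± 123 in CA0 (SD, n = 3 each; 1.03 ± 0.21, limma adjusted p = 0.0184) on 1 of its 4 tested probe sets. The other CREM probe sets differed by 0.86, 0.03 and -0.02 and did not pass. The call was lost without SAL60 replicate 1 (0.223), CA0 replicate 1 (0.123) or CA0 replicate 2 (0.107). NFIL3 read 302, 237 and 233 in SAL60, against 74.4, 152 and 79.5 in CA0 (1.26 ± 0.24, adjusted p = 0.011), and its call was lost without SAL60 replicate 1 (0.121), CA0 replicate 1 (0.0938) or CA0 replicate 3 (0.116).

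CYR61 read 334, 298 and 377 in SAL60, against 70.7, 30.0 and 56.4 in CA0 (log2 change 2.41 ± 0.29 SE, n = 3 per group, limma adjusted p = 2.7e-05). The groups stood well apart in every array. BTG2, an early gene that slows proliferation, read 303, 216 and 310 in SAL60, against 114, 18.9 and 17.9 in CA0 (2.43 ± 0.49, adjusted p = 0.0198). CA0 replicate 1 was far above the other CA0 arrays, and the call was lost without SAL60 replicate 1 (0.134), SAL60 replicate 3 (0.118), CA0 replicate 2 (0.154) or CA0 replicate 3 (0.214). Of 12 early feedback and signalling genes tested, these 2 were called higher and 0 lower, and all 12 differed upward with a median of 0.79. Over all genes 0.466% were called higher and 48.8% lay above 0, with a median of -0.01. The count was 1 without SAL60 replicates 1 or 3 or CA0 replicates 2 or 3, and 3 without CA0 replicate 1. DUSP1, which dephosphorylates MAP kinases, read 1235, 1663 and 1521 in SAL60, against 880, 600 and 443 in CA0, and did not pass (1.22 ± 0.30, adjusted p = 0.0897). RGS2, which shortens G protein signals, differed by 0.74 ± 0.17 (adjusted p = 0.0768), IER5 by 0.61 ± 0.16 and ZFP36, which destabilises cytokine mRNAs, by 1.28 ± 0.42, none of them passing.

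**Figure D3:**
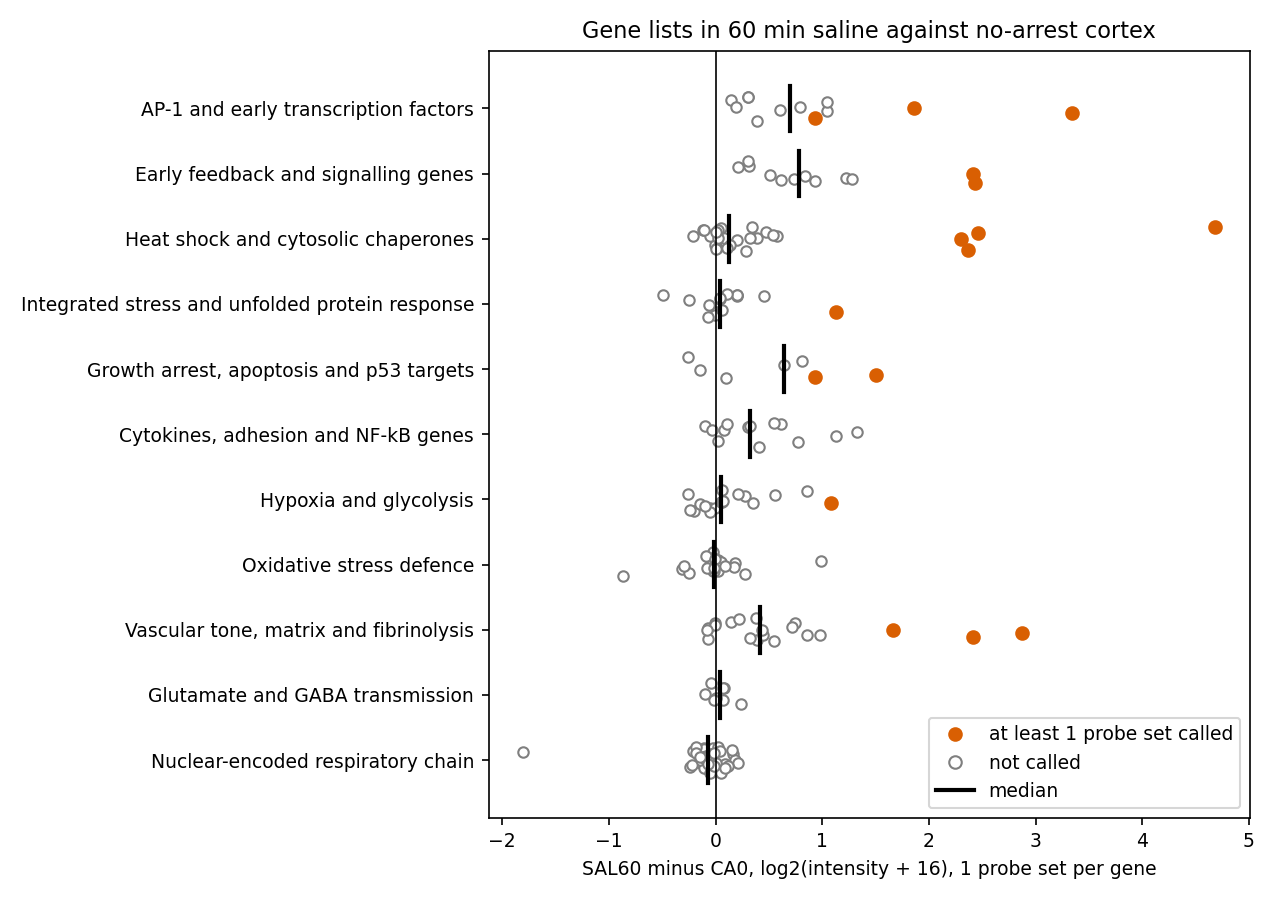
Difference of SAL60 minus CA0 (log2 scale, 1 probe set per gene) for the tested members of 11 gene lists, with genes that had a called probe set filled, others open and the list median as a bar. All 12 members of each of the top lists lie above 0, and the respiratory chain list has 29 of 41 below 0 with none called.

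ADAMTS1, a secreted protease that cuts proteoglycans of the extracellular matrix, rose on both its probe sets. It read 1351, 821 and 1132 in SAL60, against 174, 130 and 105 in CA0, on the brighter of them, with means 8.06-fold apart (log2 change 2.87 ± 0.25 SE, n = 3 per group, limma adjusted p = 1.1e-07). The other probe set rose by 2.69 ± 0.24, and the groups were far apart on both. HPSE, the heparanase that cleaves heparan sulfate chains, read 317, 220 and 276 in SAL60, against 110, 104 and 110 in CA0 (1.20 ± 0.18, adjusted p = 0.00047). Its other probe set differed by 0.21 and did not pass. DLL4, a Notch ligand of endothelial cells, averaged 137 ± 14.4 in SAL60 and 66.9 ± 7.34 in CA0 (SD, n = 3 each; 0.88 ± 0.17, adjusted p = 0.0146), a call lost without SAL60 replicates 1 (0.0839) or 3 (0.118) or CA0 replicates 2 (0.0993) or 3 (0.0694). RRAD, a Ras-related GTPase that restrains calcium channels, read 90.1, 179 and 137 in SAL60, against 16.5, 34.9 and 44.2 in CA0 (1.66 ± 0.37, adjusted p = 0.0488). It lost its call without any single array (0.0729 to 0.349).

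Of 20 genes of vascular tone, matrix and fibrinolysis tested, 3 were called higher (ADAMTS1, CYR61, RRAD) and 0 lower in limma. The list had 15 members above 0 and a median of 0.41, against 0.466% called higher, 48.8% above 0 and a median of -0.01 over all genes. CYR61 also counts in the early feedback list, and this list too was chosen with earlier results of these data known. The count was 2 without any single SAL60 or CA0 array. THBD, the endothelial thrombin receptor thrombomodulin, differed by 0.85 ± 0.25, THBS1, a matrix protein, by 0.98 ± 0.38 and EDN1, the vasoconstrictor endothelin 1, by 0.75 ± 0.28 without passing. The matrix protease inhibitor TIMP2 (-0.07 ± 0.16) and NOS3, the endothelial nitric oxide synthase (-0.08 ± 0.22), lay near 0. Endothelial markers were 0 of 12 called, with a median of -0.02. All probe sets of the 14 endothelial markers on the array summed to 3926 to 4247 in SAL60 and 4167 to 4561 in CA0. Smooth muscle and pericyte markers were 0 of 7 called, with 6 above 0 and a median of 0.32. Of them, TAGLN differed by 0.57 ± 0.21, ACTA2 by 0.44 ± 0.23 and PDGFRB by -0.19 ± 0.14. Their summed intensities were 4607 to 4961 in SAL60 and 3672 to 5263 in CA0. Against the mean of CA5, CA20 and CA30, 4 of the 7 lay above 0, with a median of 0.001. The part of these markers in the values of the vascular list was not tested.

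SLC2A3, the neuronal glucose transporter GLUT3, read 1016, 907 and 1185 in SAL60, against 537, 435 and 470 in CA0 (log2 change 1.08 ± 0.15 SE, n = 3 per group, limma adjusted p = 0.000134), with no overlap. It was the 1 gene called higher among 18 of hypoxia and glycolysis, and 0 were called lower. That list had 10 members above 0, 8 below 0 and a median of 0.05. Over all genes 0.466% were called higher and 48.8% lay above 0, with a median of -0.01. SLC2A1, the glucose transporter of the blood-brain barrier, differed by -0.05 ± 0.13. ADM, the vasodilator peptide adrenomedullin, differed by 0.86 ± 0.27 without passing, and 2 probe sets of VEGFA by 0.42 and -0.20. FUCA2, a secreted fucosidase, read 337, 308 and 497 in SAL60, against 70.0, 69.7 and 82.4 in CA0 (2.11 ± 0.24, adjusted p = 9.6e-06), and its groups stood far apart.

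The other called genes were dimmer or less stable. CD83, an immunoglobulin-family protein known as a marker of mature dendritic cells, read 609, 552 and 515 in SAL60, against 212, 173 and 187 in CA0 (log2 change 1.48 ± 0.32 SE, n = 3 per group, limma adjusted p = 0.0335). Its groups were tight and apart, yet the call was lost without any single array (0.0795 to 0.223) and held in a fit to these groups alone (0.0048). Its level in SAL30 was 861 on replicate 1, an array that stood apart, and 322 and 277 on the others. All 10 groups share 1 estimate of spread in the fit, and whether this had a part in the lost calls was not tested. The other CD83 probe set differed by 1.35 and did not pass. GEM, a Ras-related GTPase, averaged 152 ± 22.0 in SAL60 and 50.4 ± 18.7 in CA0 (SD, n = 3 each; 1.37 ± 0.29), and was kept only without CA0 replicate 2 (0.0706 to 0.267 otherwise). CRISPLD2, a secreted protein, averaged 157 ± 40.3 in SAL60 and 79.6 ± 1.53 in CA0 (0.82 ± 0.18), and was kept only without SAL60 replicate 3 (0.146 to 0.479 otherwise). IFRD1, a transcriptional co-regulator, rose by 1.20 ± 0.26 on 1 probe set, a call lost without SAL60 replicates 1 (0.267) or 3 (0.397) or CA0 replicates 1 (0.145) or 3 (0.307). Its brighter probe set differed by 0.47 ± 0.20. MTUS1, a microtubule-associated protein, rose by 1.35 ± 0.28, a call lost without SAL60 replicates 1 (0.27) or 3 (0.115) or CA0 replicates 1 (0.102) or 3 (0.273).

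GGA2, an adaptor of traffic from the Golgi, read 22.6, 40.5 and 73.9 in SAL60, against 2.53, 2.91 and 6.62 in CA0 on a dim probe set (log2 change 1.54 ± 0.30 SE, n = 3 per group, limma adjusted p = 0.0156). All its CA0 values lay below the intensity of 29.5 that corresponds to the filter on mean level. The call was lost without SAL60 replicate 3 (0.2), CA0 replicate 1 (0.0762) or CA0 replicate 2 (0.0721). Its brighter probe set differed by -0.34 ± 0.15 without passing, and the 9 arrays of untreated arrest stood at 12.7 to 44.7 on the dim probe set, with a median of 34.0.

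Of the 7 lower probe sets, 2 carried a symbol. DYNC1I2, an intermediate chain of the dynein motor, read 83.3, 69.1 and 91.3 in SAL60, against 180, 243 and 272 in CA0 (log2 change -1.34 ± 0.24 SE, n = 3 per group, limma adjusted p = 0.00716), with no overlap. The call was lost without CA0 replicate 3 (0.0967). Its other probe set, at 1750 ± 191 in SAL60, differed by 0.14 ± 0.12. FBXW7, the substrate receptor of a ubiquitin ligase, read 78.5, 82.9 and 119 in SAL60, against 209, 273 and 232 in CA0 on 1 probe set (-1.22 ± 0.25, adjusted p = 0.0249). The 4 other probe sets of FBXW7 differed by 0.00 to -0.21, and the call was kept only without SAL60 replicate 3 (0.0517 to 0.223 otherwise). COX7A1, a subunit of cytochrome c oxidase, read 249, 345 and 351 in SAL60, against 910, 510 and 891 in CA0 (-1.22 ± 0.29), and PIGL, an enzyme of membrane anchor synthesis, 16.2, 5.86 and 33.2 in SAL60, against 89.1, 169 and 196 in CA0 (-2.30 ± 0.54). Neither passed (adjusted p = 0.0721 for both).

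Probe sets with no single symbol made up 15 of the 46 higher and 5 of the 7 lower ones. Ssc.9473.1.A1_at read 588, 346 and 878 in SAL60, against 18.7, 31.6 and 36.0 in CA0 (log2 change 3.72 ± 0.46 SE, n = 3 per group, limma adjusted p = 3.0e-05). Ssc.25461.1.S1_at read 101, 125 and 116 in SAL60, against 24.1, 30.3 and 15.3 in CA0 (1.74 ± 0.21, adjusted p = 2.7e-05). Among the lower ones, Ssc.13474.1.A1_at averaged 125 ± 16.6 in SAL60 and 354 ± 24.2 in CA0 (SD, n = 3 each; -1.40 ± 0.25, adjusted p = 0.006), a call lost without SAL60 replicate 1 (0.0603) or CA0 replicate 3 (0.0506). Ssc.19516.1.A1_at read 163, 180 and 164 in SAL60, against 253, 393 and 320 in CA0 (-0.85 ± 0.17, adjusted p = 0.0164), a call lost without SAL60 replicates 1 (0.111) or 3 (0.105) or CA0 replicates 2 (0.154) or 3 (0.0975).

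Inflammatory genes gave no call at 60 min. Of 13 cytokine, adhesion and NF-kB genes tested, 0 were called in limma, against 0.466% called higher and 0.0345% called lower over all genes. In a list of 13 genes, 0 calls is near that share. Of the 13, 11 lay above 0 with a median of 0.33, against 48.8% above 0 and a median of -0.01 over all genes. CXCL2, a chemokine for neutrophils, read 63.2, 67.4 and 114 in SAL60, against 64.7, 15.2 and 16.9 in CA0, so that CA0 replicate 1 overlapped with SAL60 (1.13 ± 0.43, adjusted p = 0.631). CCL2, a chemokine for monocytes, differed by 1.33 ± 0.57, IL1B, the cytokine interleukin 1 beta, by 0.61 ± 0.23 and PTGS2, an inducible cyclooxygenase, by 0.03 ± 0.30. NOS2, which makes nitric oxide in inflammation, stood 0.89 ± 0.30 apart at intensities near the filter, 37.3 ± 8.92 in SAL60 and 13.7 ± 10.4 in CA0 (SD, n = 3 each). Microglia markers, which were 0 of 5 called, had a median of -0.28. All probe sets of the 7 microglia markers on the array summed to 1959 to 2463 in SAL60 and 2361 to 3916 in CA0. The part of these markers in the cytokine values was not tested.

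Defence, energy and transmitter genes gave no call, against 0.466% called higher and 0.0345% called lower over all genes. In lists of this size 0 calls is near that share. Of 22 oxidative stress genes tested, 0 were called, with a median of -0.01 and differences of -0.87 to 0.99. HMOX1, the inducible heme oxygenase, read 151, 113 and 110 in SAL60, against 25.4, 87.1 and 65.5 in CA0, and did not pass (0.99 ± 0.30, limma adjusted p = 0.364). SOD1, SOD2 and CAT, which remove superoxide or hydrogen peroxide, differed by -0.02, 0.02 and -0.02. Of 41 nuclear-encoded respiratory chain genes, 0 were called, 29 lay below 0, the median was -0.07 and the differences ran from -1.80 to 0.21. Against the mean of CA5, CA20 and CA30, 18 of the 41 lay above 0, with a median of -0.02. Of 8 genes of glutamate and GABA transmission, 0 were called, with differences of -0.10 to 0.24. The astrocyte gene GFAP differed by 0.35 ± 0.26, the myelin gene MBP by 0.53 ± 0.27 and the tight junction gene CLDN5 by 0.12 ± 0.24, each on the probe set with its smallest p, and none passed. The far brighter probe sets that stood for GFAP and MBP in the marker lists differed by -0.07 ± 0.23 and 0.06 ± 0.22. Of the 11 astrocyte markers tested 8 lay below 0, with a median of -0.10, and all 8 oligodendrocyte markers lay above 0, with a median of 0.21. Over all genes 48.8% lay above 0. Against the mean of CA5, CA20 and CA30, 8 of the 11 astrocyte markers lay above 0, with a median of 0.03. All 8 oligodendrocyte markers lay above 0 there too, with a median of 0.24.

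Cortex without reperfusion but with 5 to 30 min of untreated arrest gave another set of 9 arrays against which the same SAL60 arrays could be set. Against the mean of CA5, CA20 and CA30, 73 probe sets were called in limma, 0.435% of those tested, 64 of them higher and 9 lower. The count was 38 without SAL60 replicate 1 and 41 without SAL60 replicate 3. Of the 53 called against CA0, 52 had the same direction and 41 were called here too (37 higher, 4 lower). Both comparisons use the same SAL60 arrays, so they are not independent. Of the 33 with a symbol, 27 were called, 20 of these in each of the 12 fits that left out 1 array.

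HSPA6 stood at 92.7 to 161 on the 9 arrays of untreated arrest, with a median of 115, so that SAL60 was 4.61 ± 0.16 higher on the log2 scale (limma adjusted p = 8.5e-17). ATF3 stood at 21.2 to 118 there, all below the lowest SAL60 array (347), a log2 difference of 2.88 ± 0.24. HSP70.2 stood at 581 to 1106 on its first probe set, and none of these arrays reached the 3543 of CA0 replicate 2 (3.67 ± 0.32). NFIL3 (1.37 ± 0.20), CREM (1.07 ± 0.17), FOSL2 (0.87 ± 0.15), GEM (1.67 ± 0.24), GADD45B (1.13 ± 0.16) and DYNC1I2 (-1.14 ± 0.20), whose calls against CA0 were lost without single arrays, were called here in all 12 such fits. RGS2, which did not pass against CA0, was called in all 12 as well (0.92 ± 0.14, adjusted p = 0.000532). FOS, at 487 to 2652 on the arrays of untreated arrest, was 1.78 ± 0.33 higher in SAL60 (adjusted p = 0.00654), a call lost without SAL60 replicate 1 (0.0783) or 3 (0.0507).

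The genes not called against untreated arrest were GGA2 (0.30 ± 0.25, limma adjusted p = 0.982), ZFAND2A (0.70 ± 0.18, 0.099), MTUS1 (0.88 ± 0.23, 0.114), FBXW7 (-0.80 ± 0.21, 0.106), IFRD1 (0.87 ± 0.21, 0.0764) and CRISPLD2 (0.63 ± 0.15, 0.0602). All 6 kept the sign they had against CA0. MTUS1 was called there without CA5 replicate 3 (0.0265), IFRD1 without SAL60 replicate 2 (0.00671) or CA20 replicate 1 (0.0298), and CRISPLD2 without SAL60 replicate 3 (0.0119), CA5 replicate 1 (0.0464) or CA20 replicate 2 (0.0315).

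**Figure D4:**
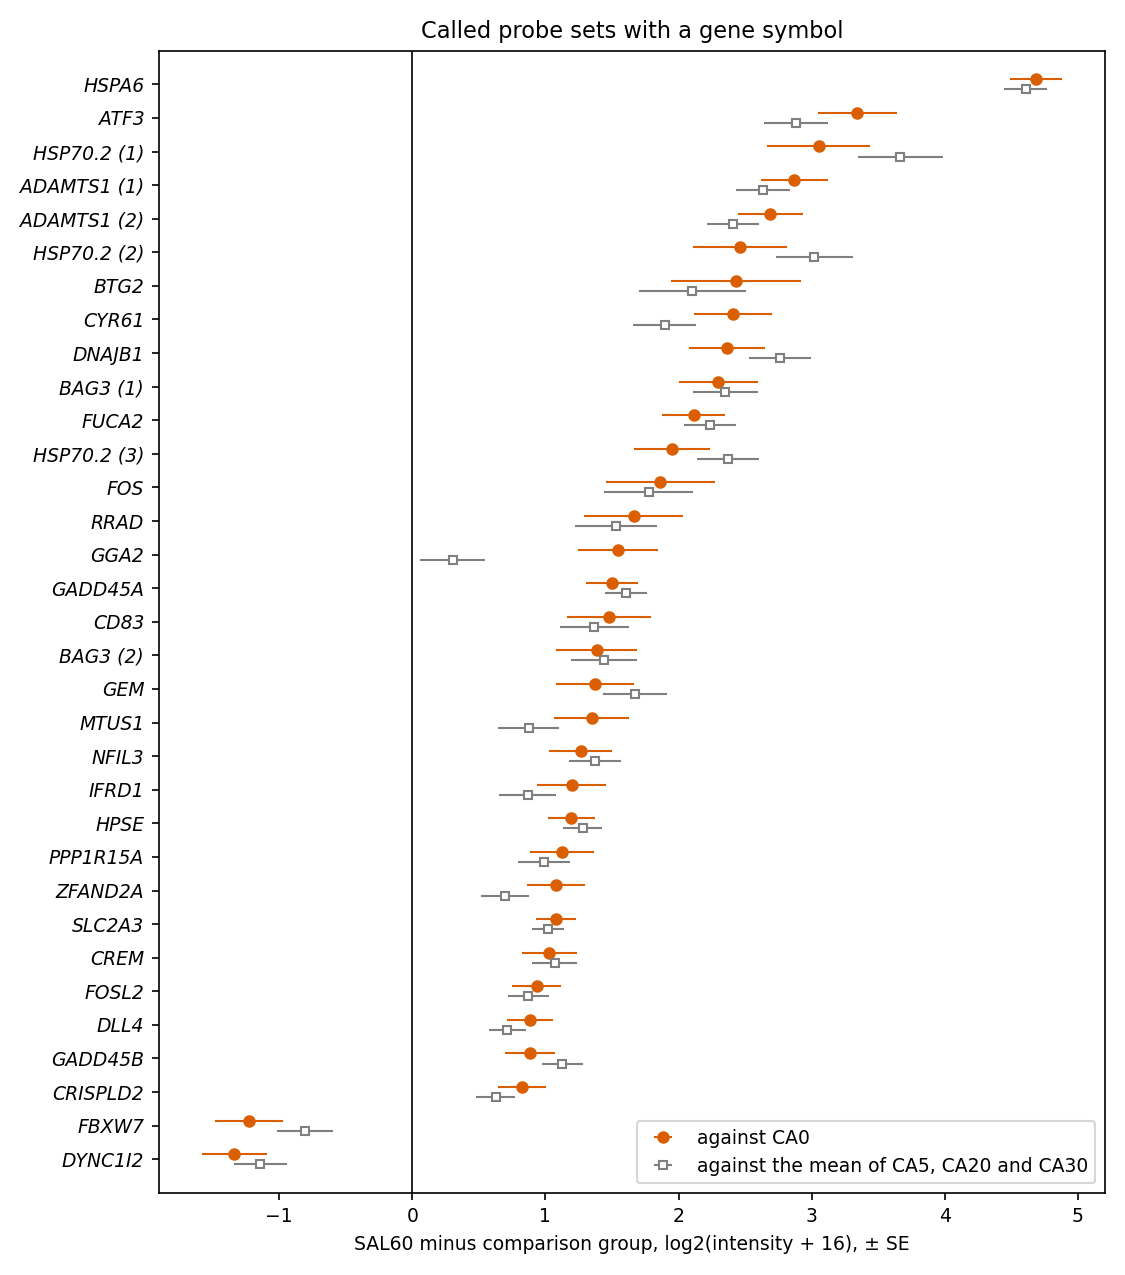
Difference of SAL60 minus CA0 (orange circles) and of SAL60 minus the mean of CA5, CA20 and CA30 (open grey squares) on the log2 scale, ± SE, for the 33 probe sets with a symbol called against CA0; numbers in brackets tell probe sets of a gene apart. HSPA6 lies at 4.68 and 4.61, and GGA2 is the row whose differences lie farthest apart, at 1.54 and 0.30.

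The SAL60 arrays were also set against the earlier and the later saline group. Against SAL30, 0 probe sets were called in limma (0%), 537 had an unadjusted p under 0.05, and the smallest adjusted p was 0.164. HSPA6 differed by 0.27 ± 0.20, BAG3 by 0.33 ± 0.30, ATF3 by -0.30 ± 0.30 and CYR61 by -0.47 ± 0.29 in SAL60 minus SAL30. DUSP1 stood at 641 ± 221 in CA0, 3394 ± 607 in SAL30, 1473 ± 218 in SAL60 and 1130 ± 217 in SAL180 (SD, n = 3 each). CXCL2 stood at 32.3 ± 28.1, 407 ± 64.8, 81.6 ± 28.3 and 29.9 ± 15.4 in the same order. In both genes the SAL60 arrays lay below every SAL30 array, and the differences of -1.19 ± 0.30 and -2.14 ± 0.43 did not pass. The share of all probe sets without overlap between SAL60 and SAL30 is not given here.

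In SAL180 against SAL60, 17 probe sets were called in limma (0.101%), 11 higher and 6 lower, and 0 to 12 were called when 1 array was left out, with 0 without SAL60 replicate 3. A fit to these groups alone called 0. HSPB8, a small heat shock protein that works with BAG3, read 1891, 2029 and 1509 in SAL180, against 916, 977 and 1003 in SAL60 (0.89 ± 0.15, adjusted p = 0.0123). Its SAL180 arrays all lay above its SAL60 arrays, and its call was kept in 2 of the 6 fits that left out 1 array (0.0773 to 0.0797 in the others). HSPA6 differed by 0.59 ± 0.20, BAG3 by 0.66 ± 0.30, GADD45B by 0.64 ± 0.19, ATF3 by -0.67 ± 0.30 and DYNC1I2 by -0.77 ± 0.24 in SAL180 minus SAL60 without passing. Values of SAL30 and SAL180 against CA0 share the CA0 arrays with those of SAL60, so each is given on its own: ATF3 was 3.64, 3.34 and 2.67 above CA0 at 30, 60 and 180 min, and BAG3 1.97, 2.30 and 2.96.

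**Figure D5:**
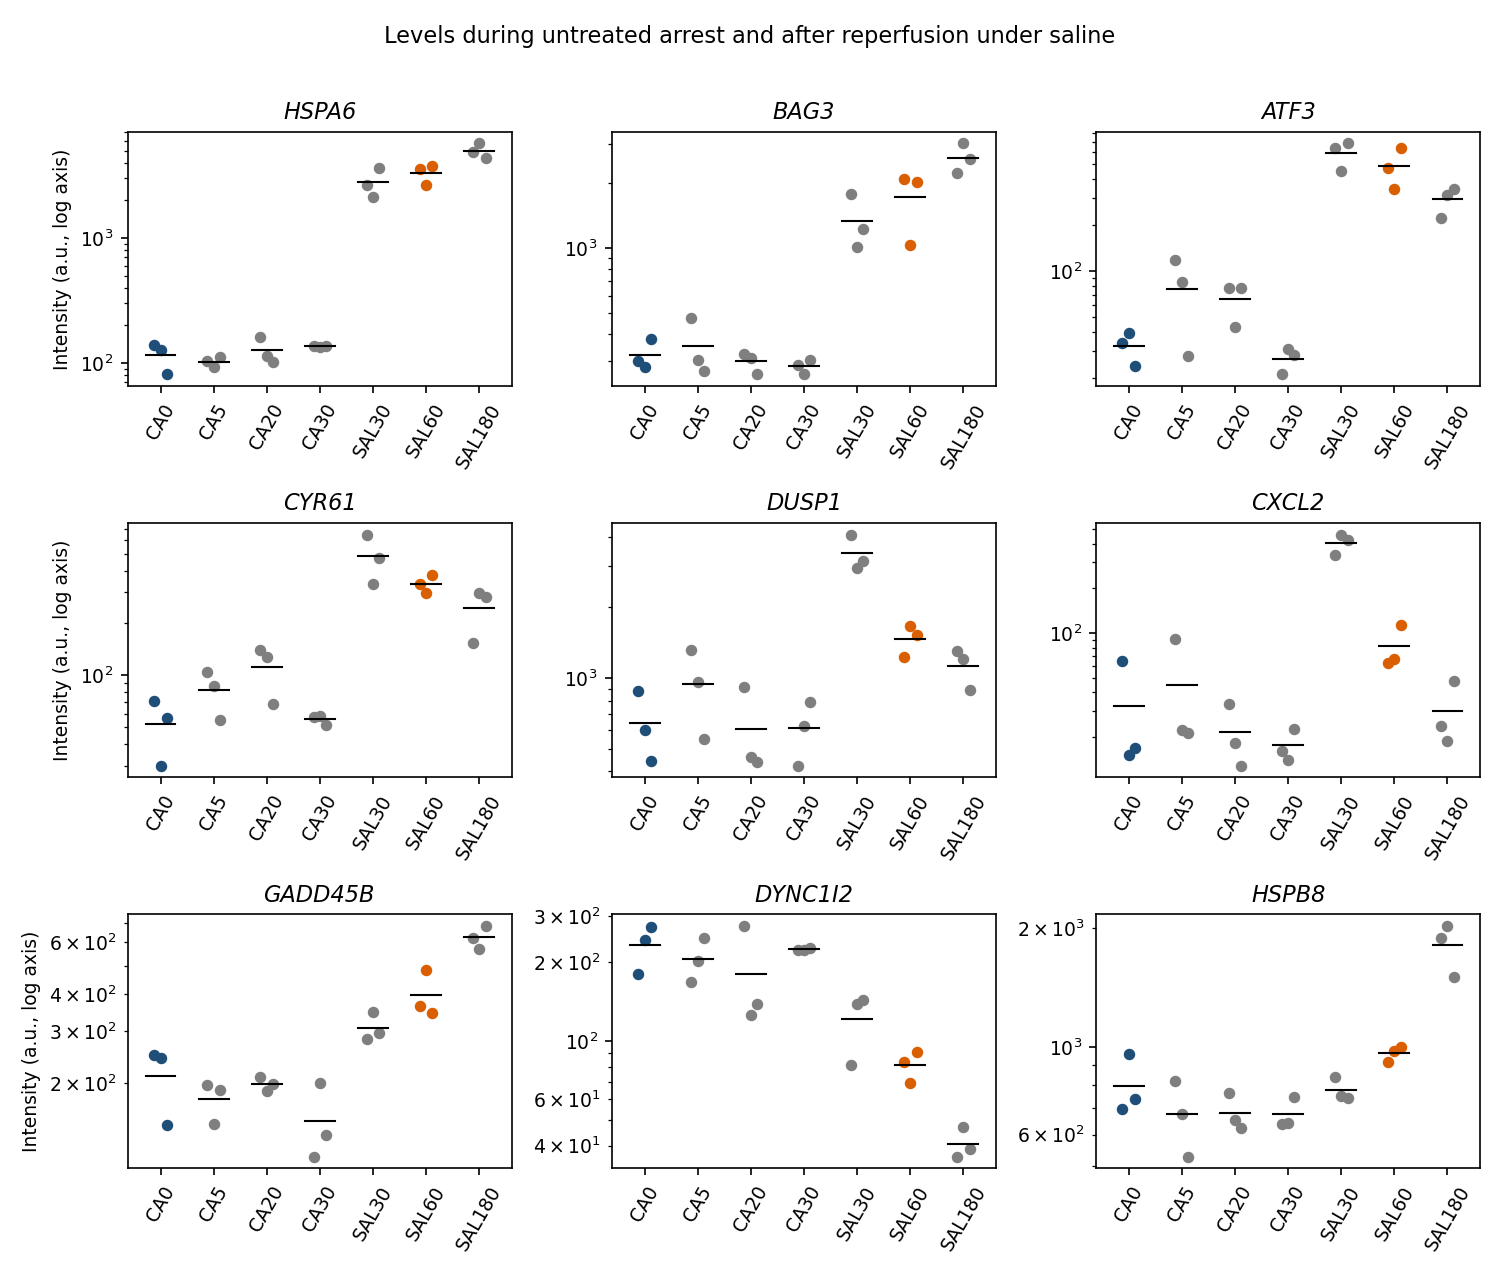
Intensity (arbitrary units, log axis) of 9 genes on each array, with the group mean as a line, from 0 to 30 min of untreated arrest (CA0 in blue) and at 30, 60 and 180 min of reperfusion under saline (SAL60 in orange). HSPA6 lies at 161 or less without reperfusion and at 2133 or more after it, and DUSP1 and CXCL2 are highest in SAL30.

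With methylene blue in the infusion, HSPA6 read 2639, 4035 and 3676 in MB60, against 3579, 2664 and 3776 in SAL60 (0.04 ± 0.20, limma adjusted p = 0.943). In MB60 against SAL60 1.52% of probe sets were called, and among those of the genes described here the brighter IFRD1 probe set was lower, at 472 ± 193 in MB60 and 865 ± 34.5 in SAL60 (SD, n = 3 each; -0.92 ± 0.20, adjusted p = 0.0223). Its MB60 arrays, at 693, 342 and 380, all lay below its SAL60 arrays. The lowest of them, replicate 2, was the array that stood apart, and whether the call holds without it is not given here. The other IFRD1 probe set, the one called against CA0, differed the opposite way and did not pass, at 318 ± 57.0 in MB60 and 258 ± 102 in SAL60 (0.35 ± 0.26, adjusted p = 0.513).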

How the data were processed

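RNA of cerebral cortex was hybridised to an Affymetrix porcine expression array, 1 array per sample and 30 in all. The deposited values are intensities on a linear scale, 1 per probe set, which the authors scaled array by array in GCOS, per the submitters' processing notes. Its version is not given in the sources used. Of 24123 probe sets, 124 control probe sets were left out. Values were taken as log2(intensity + 16), with a pseudocount of 16, and probe sets under the 30th percentile of mean log2 value were left out, leaving 16799 of 23999.

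limma 3.58.1 in R 4.3.3 fitted 10 group means (20 residual degrees of freedom, intensity trend, two-sided tests), and p-values were adjusted by Benjamini-Hochberg within each comparison, at 0.05. SEs are those of the fit. Levels are given as mean ± SD over the deposited intensities of 3 arrays, and the number of arrays limits the precision. The script was tested on simulated data. A gene was named from the platform annotation, which can be old: 10110 probe sets had 1 symbol, 157 several and 13732 none, and 9973 matched a gene by ID. For gene lists, 1 probe set stood for each gene, and a gene counted as called if any of its probe sets was.

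The genes and lists were chosen with earlier results of these data known. Named were all probe sets with 1 symbol that passed in SAL60 against CA0, the 15 with the smallest p that did not, 2 members of each list, and a set of marker and stress genes; Ssc.11729.1.A1_at, Ssc.26689.1.S1_at and the genes called in SAL180 against SAL60 were named after their values were seen, as were the further list members given as examples. Alternatives were other pseudocounts, filters, scalings, weights, covariates and sets of arrays. Same-numbered SAL60 and CA0 replicates did not deviate together (r of -0.08, -0.06 and -0.04), so numbers were not taken to pair animals. Nothing in the labels gives a batch.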

Additional observations from a re-analysis of the deposited data

Results flagged for a closer look

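Some probe sets differed between times or infusions in a test of the difference itself, and were therefore set out with their values. In SAL180 against SAL60 (limma, log2 scale, n = 3 per group) Ssc.25461.1.S1_at differed by -1.07 ± 0.21, Ssc.11729.1.A1_at by -0.82 ± 0.14 and Ssc.26689.1.S1_at by -1.55 ± 0.31. These 3 probe sets without a symbol were set out because they were also called in SAL60 against CA0, all 3 higher there. Both comparisons use the same SAL60 arrays, with opposite sign, so they are not independent, and a peak at 60 min was not tested. Ssc.11729.1.A1_at averaged 212 ± 29.1 in SAL180 and 385 ± 13.9 in SAL60, against 217 ± 23.0 in CA0. CD93, a receptor of endothelial and myeloid cells, was 0.91 ± 0.17 higher in SAL180 than in SAL60, HSPB8 0.89 ± 0.15, the zinc finger gene ZNF263 0.82 ± 0.17, C1H15orf48 1.40 ± 0.24 and the homeobox gene SIX4 1.21 ± 0.24. LUC7L3, a splicing factor, differed by -0.72 ± 0.14. None of these 9 was called in more than 2 of the 6 fits that left out 1 array, and none without SAL60 replicate 3. In MB60 against SAL60, the brighter IFRD1 probe set differed by -0.92 ± 0.20 and the other by 0.35 ± 0.26, which did not pass.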

How the results depend on the processing

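In SAL60 against CA0 array weights called 94 probe sets (27 lower), and a fit to these groups alone 19 (17 higher, 2 lower). Leaving out 1 array gave 23 to 47 calls, 22 to 38 higher and 0 to 9 lower. The replicate block called 48, of which 47 were among the 53. Against the mean of CA5, CA20 and CA30, array weights called 164 (123 higher, 41 lower), a filter at the 50th percentile left 5 lower, and leaving out 1 array gave 38 to 78, 33 to 70 higher and 5 to 12 lower. In SAL60 against SAL30 a pseudocount of 64 called 2 (1 higher, 1 lower) and the compared groups alone 1 (1 lower), and leaving out 1 array gave 0 to 0. In SAL180 against SAL60, array weights called 190 (104 higher, 86 lower), a pseudocount of 64 gave 17 higher, no filter called 10 (2 lower), a filter at the 50th percentile 11 (6 higher), median centring 3 lower, no intensity trend 10 lower, the replicate block 10 (2 lower), the fit without the methylene blue arrays, chosen after seeing the data, 10 (6 higher), and the compared groups alone 0 (0 higher, 0 lower). Leaving out 1 array gave 0 to 12, 0 to 7 higher and 0 to 5 lower. Of the 15 genes called over all 11 lists, 8 were called in the compared groups alone and 9 to 13 with 1 array left out. The cause of these changes was not tested, except that fewer arrays entered some fits.

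Uncalled differences near 0 changed sign. PTGS2 was -0.084 with quantile normalization, -0.051 with median centring, -0.057 with array weights, -0.14 without SAL60 replicate 3, -0.047 without CA0 replicate 1 and -0.21 without CA0 replicate 2, and leaving out 1 array gave up to 0.34. CLDN5 was -0.014 without SAL60 replicate 3 and -0.0094 without CA0 replicate 1, and up to 0.23 otherwise. GGA2 against untreated arrest was -0.012 without SAL60 replicate 3 and up to 0.60 without other arrays.

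With 3 arrays per group, a single array decides many calls, and a gene that did not pass is not shown to be unchanged. Dim probe sets near the filter are compressed by the pseudocount.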

Other observations

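Some named probe sets passed against the 9 arrays of untreated arrest and not against CA0. INSIG1, which holds back cholesterol synthesis, was 0.93 ± 0.18 higher in SAL60 than in the mean of CA5, CA20 and CA30 (limma adjusted p = 0.00899), against 0.94 relative to CA0 (0.0768). DUSP1 was 1.11 ± 0.24 higher (0.0254) and IER5 0.61 ± 0.13 higher (0.0224), and ICK, a kinase of cilia, differed by -0.74 ± 0.16 (0.0212). The other GADD45B probe set was 1.13 ± 0.21 higher (0.00606). The call of DUSP1 held in 6 of the 12 fits that left out 1 array, those of IER5 and ICK in 9 each, that of INSIG1 in 10 (0.153 without SAL60 replicate 1 and 0.0761 without SAL60 replicate 2) and that of the GADD45B probe set in 11 (0.154 without SAL60 replicate 3). DUSP1 was lost without any SAL60 array, CA20 replicates 2 or 3 or CA30 replicate 1 (0.0515 to 0.224), and IER5 (0.0519 to 0.336) and ICK (0.0533 to 0.233) without any SAL60 array.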
